A study of Mus musculus with 17 samples.

Results

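Ribosomal proteins are the structural proteins of the ribosome, the particle that reads messenger RNA and builds protein. Proteins of the small subunit, 40S, surround the site where the messenger is decoded, and those of the large subunit, 60S, surround the site where amino acids are joined and the tunnel through which the new chain leaves. Their messengers are short, abundant and used by every cell, and many begin with a run of pyrimidines (C and T) through which the kinase mTOR controls their translation. Neurons also carry ribosomes into dendrites and axons, where messengers are translated at a distance from the cell body.

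The cytosolic ribosomal protein genes were taken by symbol: Rpl or Rps followed by a number and at most 1 of the letters a, x, y and l, or Rplp0, Rplp1, Rplp2 and Rpsa, with pseudogene symbols containing -ps left out. This rule used no measured value and found 83 genes among the 78298 rows of the expression files, 51 named for the 60S subunit and 32 for the 40S subunit. Of these, 7 symbols end in l and name paralogs of another member (Rps27l, Rps4l, Rpl6l, Rpl3l, Rpl39l, Rpl32l and Rpl10l), which leaves 76 canonical genes, 46 of the 60S and 30 of the 40S subunit. The pattern misses several genuine ribosomal protein genes with irregular names, among them Fau, Rps3a1 and Rpl36al.

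Expression was measured in 17 libraries of poly(A) RNA from tissue labelled as locus coeruleus, a brainstem nucleus of noradrenergic neurons, of male C57BL/6 mice, whose age the labels do not give. The 3 groups were untreated controls (6 libraries), mice given vindeburnol (5 libraries) and mice given VB-127 (6 libraries), a compound known here by its code name that the labels call a derivative of vindeburnol. Both compounds were dissolved in water and given by oral gavage once daily at 20 mg/kg for 5 days, and tissue was taken 24 h after treatment. No group is labelled as gavaged with water alone, so an effect of a compound and an effect of gavage cannot be told apart. By its title the study looked for what vindeburnol and its derivatives act on, and the comparisons here ask whether the ribosomal protein messengers differed with treatment.

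Values are TPM, a length-corrected unit that scales every library to the same total, so levels can be compared between genes but the read depth is unknown. Bc1, a short non-coding RNA of neurons, took 16.1% to 35.3% of all TPM in a library, and genes of the mitochondrial genome took 8.59% to 14.8%. Dbh and Slc6a2, the defining genes of noradrenergic neurons, had medians of 1.08 and 0.300 TPM, beside 74.2 TPM for the serotonergic gene Tph2 and 45.5 TPM for the dopaminergic gene Slc6a3. Control replicate 1, with 18.9 TPM of Dbh, and control replicate 6, with 12.3 TPM, stood above the remaining libraries, none of which passed 2.57 TPM, so the defining markers of the labelled nucleus were at or near 0 in most libraries and highest in 2 controls. How this bears on the differences between groups was not tested beyond leaving out each library in turn. In such bulk tissue, fewer cells of a type and less RNA per cell cannot be told apart. Nothing in the labels ties a library to 1 animal, and the p-values below therefore measure only the spread between libraries, which may be technical.

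RefSeq start sites (build GRCm38.p6) were found for 61 of the 83 genes and show sequence features that part of the family carries. Each line below gives 30 bases of the transcribed strand, from 10 bases before the annotated start to 20 bases from it, for genes described further on. Capitals mark the longest pyrimidine run in the first 5 genes and the letters CCGGAAG, the core bound by ETS-family factors, in the last pair. Also shown is Rpl22, the lowest of the canonical genes and the one with the smallest p for vindeburnol against controls. Its capitals mark the first of its longest runs, which lies before the annotated start, and a run of the same length follows the start.
Rpl13a: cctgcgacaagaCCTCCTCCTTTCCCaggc
Rps27: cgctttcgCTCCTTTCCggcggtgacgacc
Rps24: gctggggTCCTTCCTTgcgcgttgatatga
Rpl15: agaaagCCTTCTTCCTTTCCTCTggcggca
Rps15a: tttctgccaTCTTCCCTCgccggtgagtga
Rpl22: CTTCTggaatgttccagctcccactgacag
Rpl26: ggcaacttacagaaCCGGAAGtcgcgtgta
Rps27l: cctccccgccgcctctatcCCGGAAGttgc

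The windows lie at chr7:45128726-45128755 (Rpl13a, minus strand), chr3:90213629-90213658 (Rps27, minus), chr14:24490668-24490697 (Rps24, plus) and chr14:18270967-18270996 (Rpl15, minus). The others lie at chr7:118116128-118116157 (Rps15a, minus), chr4:152324426-152324455 (Rpl22, plus), chr11:68901556-68901585 (Rpl26, plus) and chr9:66946076-66946105 (Rps27l, plus). All span the first transcribed bases as RefSeq annotates them, and Rps24, Rpl22 and Rps27l have 2 start sites there, of which the one with the longest run is shown. The run is 14 bases long in Rpl13a, 9 in Rps27, Rps24 and Rps15a, 17 in Rpl15 and 5 in Rpl22. Several other named genes had shorter runs than Rpl22, among them Rps3 with 2 bases and Rps15 and Rpl41 with 3. A run of at least 8 pyrimidines on the transcribed strand was present in this window in 24 of the 61 genes (39.3%), against 13.0% of 27025 genes with a RefSeq start site. On the other strand the run was present in 3 of the 61 (4.92%) against 15.4% of all genes.

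CCGGAAG, searched on both strands of the 300 bases from 250 before to 50 after the start, was present in 25 of the 61 (41.0%) against 9.93% of all genes. TATAAA, the TATA box core, was present in 7 (11.5%) against 15.7%, and AAGATGG, the core bound by YY1, in 9 (14.8%) against 7.28%. These letters are a description of the windows and do not show that a factor binds there. The messengers themselves are short: in GENCODE M21 the 76 canonical genes had a median transcript length of 751 bases and a coding length of 462 bases, against 2797 and 1395 bases for 13493 tested genes with a length.

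The canonical genes were among the most abundant messengers in the tissue. Their means over the 17 libraries ran from 198 TPM for Rpl22 to 1969 TPM for Rpl13a, a 9.95-fold span with a median of 590 TPM (589.7 before rounding), beside a median of 10.8 TPM over all 16153 genes that passed the filter for testing. Of the 76, 38 lay above 607 TPM, the level that only 1% of tested genes exceeded, and 21 were among the 100 genes with the highest means. The 40S genes had a median level of 624 TPM and the 60S genes 528 TPM. The plot of all members by level shows that canonical neighbours in this order overlap across libraries.

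**Figure D1:**
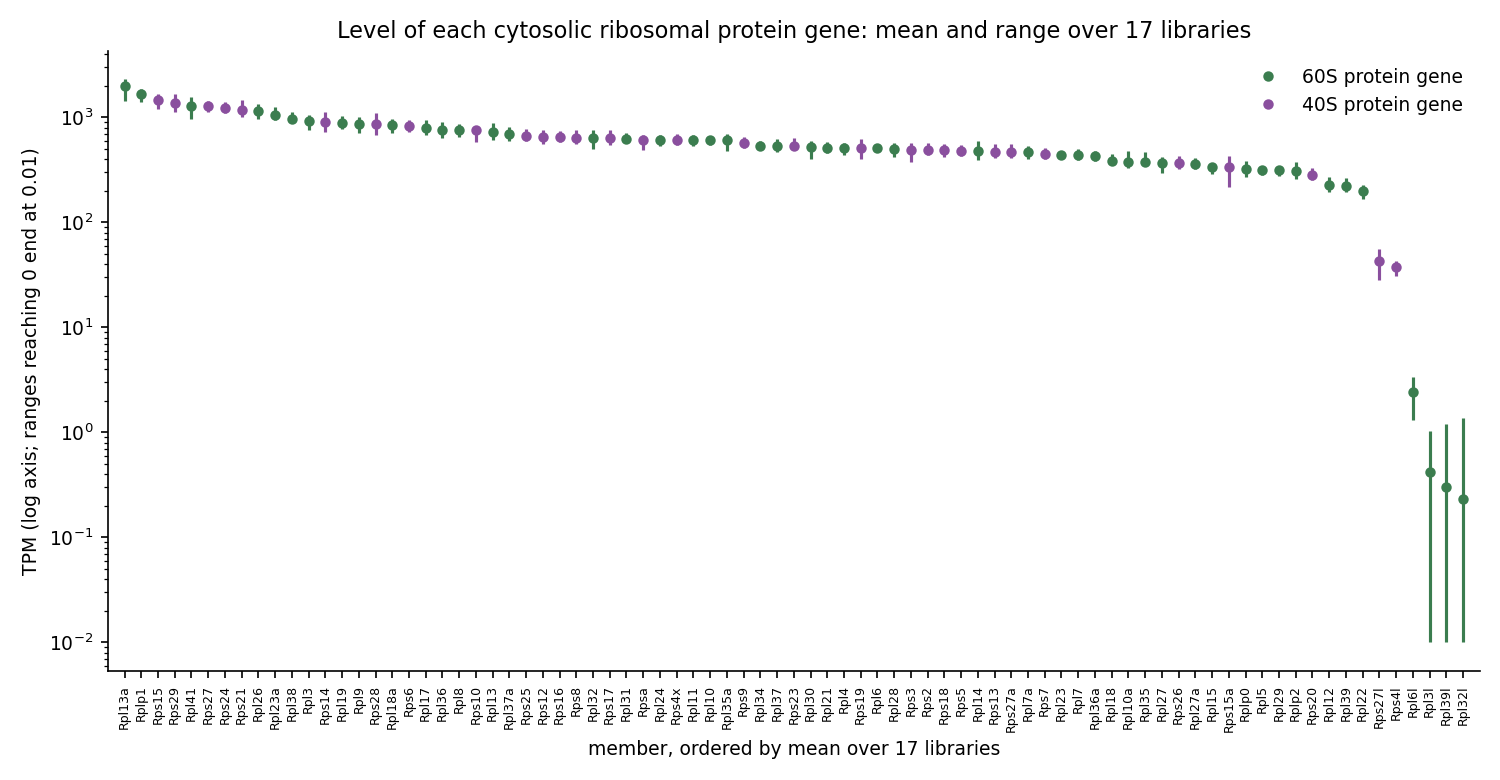
Level of 81 of the 83 genes in TPM on a log axis, ordered by mean; points are means over 17 libraries, vertical lines run from the lowest to the highest library, and colour gives the subunit. Rpl10l, listed at 0 everywhere, and 1 canonical gene are not drawn; the canonical genes form a band between 198 and 1969 TPM and the 6 paralogs drawn lie below it.

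The 10 highest genes together held 27.2% of the summed members. At the top was Rpl13a, a 60S protein that can also act outside the ribosome to silence inflammatory messengers, with 1575, 1950.5 and 2253 TPM as the lowest, median and highest control. It measured 1421, 1982, 2256, 2088 and 1874 TPM in the 5 vindeburnol libraries and 1820.5, 2020.3 and 2324 TPM as the lowest, median and highest VB-127 library. The vindeburnol range enclosed the whole control range, and vindeburnol replicate 1 was the lowest of all 17 libraries.

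Rplp1, an acidic protein of the flexible stalk that recruits the elongation factor GTPases, followed with a mean of 1659.7 TPM. After it came Rps15 at 1457 TPM, Rps29 at 1375 TPM, Rpl41 at 1292 TPM, Rps27 at 1283 TPM, Rps24 at 1227 TPM, Rps21 at 1164 TPM, Rpl26 at 1144 TPM and Rpl23a at 1045 TPM. Each of these neighbours differed in mean by less than the range of either over the libraries. The 10 highest genes had short transcripts, with a median of 504.5 bases, against 721 bases in the 10 lowest canonical genes.

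The other stalk genes were far lower: Rplp0, the base of the stalk, had a mean of 321 TPM and Rplp2, the partner of Rplp1, 307 TPM. Rplp2 measured 301 ± 28.1 TPM in the untreated libraries (SD, n = 6), 299 ± 12.9 in the vindeburnol libraries (n = 5) and 319 ± 35.8 in the VB-127 libraries (n = 6). The lowest canonical genes were Rpl22, Rpl39, a small protein lining the exit tunnel, at 220.1 TPM, and Rpl12, at the root of the stalk, at 229 TPM.

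The paralogs lay below every canonical gene. Rps27l, the paralog of the zinc-binding 40S protein Rps27, had a mean of 42.7 TPM, a median of 3.09% of Rps27 in the same library. Rps4l stood at 37.8 TPM, or 6.21% of the X-linked Rps4x, and Rpl6l at 2.43 TPM, or 0.506% of Rpl6. Rpl3l, the form known from striated muscle, and Rpl39l, a form of the testis, did not pass the filter and had means of 0.417 and 0.300 TPM against 918 and 220.1 TPM for Rpl3 and Rpl39.

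Rpl32l was listed at 0 in 13 libraries and at 0.702 to 1.38 TPM in the other 4, and Rpl10l, another testis form, was listed at 0 in all 17. These 4 genes were therefore not tested, and 79 members were. Values of a paralog or of a pseudogene depend on how the quantification shared reads between near-identical sequences. The files held 322 rows with a ribosomal protein pseudogene symbol, of which 150 were at 0 in every library and 53 passed the filter.

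Summed, these pseudogene rows came to 0.724% to 0.926% of the summed members in a library. The highest were Rpl17-ps8 at 37.0 TPM, 4.72% of Rpl17, and Rps6-ps4 at 29.1 TPM, 3.52% of Rps6. Several copies of Rpl35a were at 0 in some libraries and high in others, up to 69.7 TPM for Rpl35a-ps2 and 85.7 TPM for Rpl35a-ps3, so the division between Rpl35a and its copies is uncertain.

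Between libraries the canonical genes were steady. Their SD within groups, pooled over the 3 groups on the log2(TPM + 1) scale, had a median of 0.110, against 0.261 for all tested genes and 0.137 for the 512 other tested genes at or above the level of the lowest canonical gene. The steadiest were Rpl10, a late-joining 60S protein, Rpl23, Rpl5, Rpl6 and Rpl15. Rpl10 measured 541, 605 and 663 TPM as the lowest, median and highest control, 574, 596, 609.6, 600.3 and 598 TPM after vindeburnol, and 593, 615 and 634 TPM as the lowest, median and highest after VB-127. All treated values of Rpl10 lay inside the control range.

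Rps15a, Rps27l, Rpl6l, Rpl13a and Rps28 varied most. Rps15a, a 40S protein, had the largest SD of any canonical gene, 0.235, with 217 TPM in control replicate 6 and 426 TPM in control replicate 5. Its treated libraries lay between those, with vindeburnol at 273 to 366 TPM and VB-127 at 279 to 378 TPM. Rps28, another 40S protein, ran from 729 to 1104 TPM in controls alone, with control replicate 5 at the top.

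Part of this spread was shared by the family within a library, as the map of deviations by library shows. Control replicate 5 lay above the 17-library median for 76 of the 76 canonical genes and was the highest library for 53 of them. At the other end, control replicates 1, 3 and 6 and vindeburnol replicate 1 lay above the median for only 5, 4, 6 and 6 genes, and vindeburnol replicate 1 was the lowest library for 29 genes. The library means of the canonical genes had an SD of 0.0894 within groups, and once each library's mean was removed the median SD of a gene fell from 0.110 to 0.0725.

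**Figure D2:**
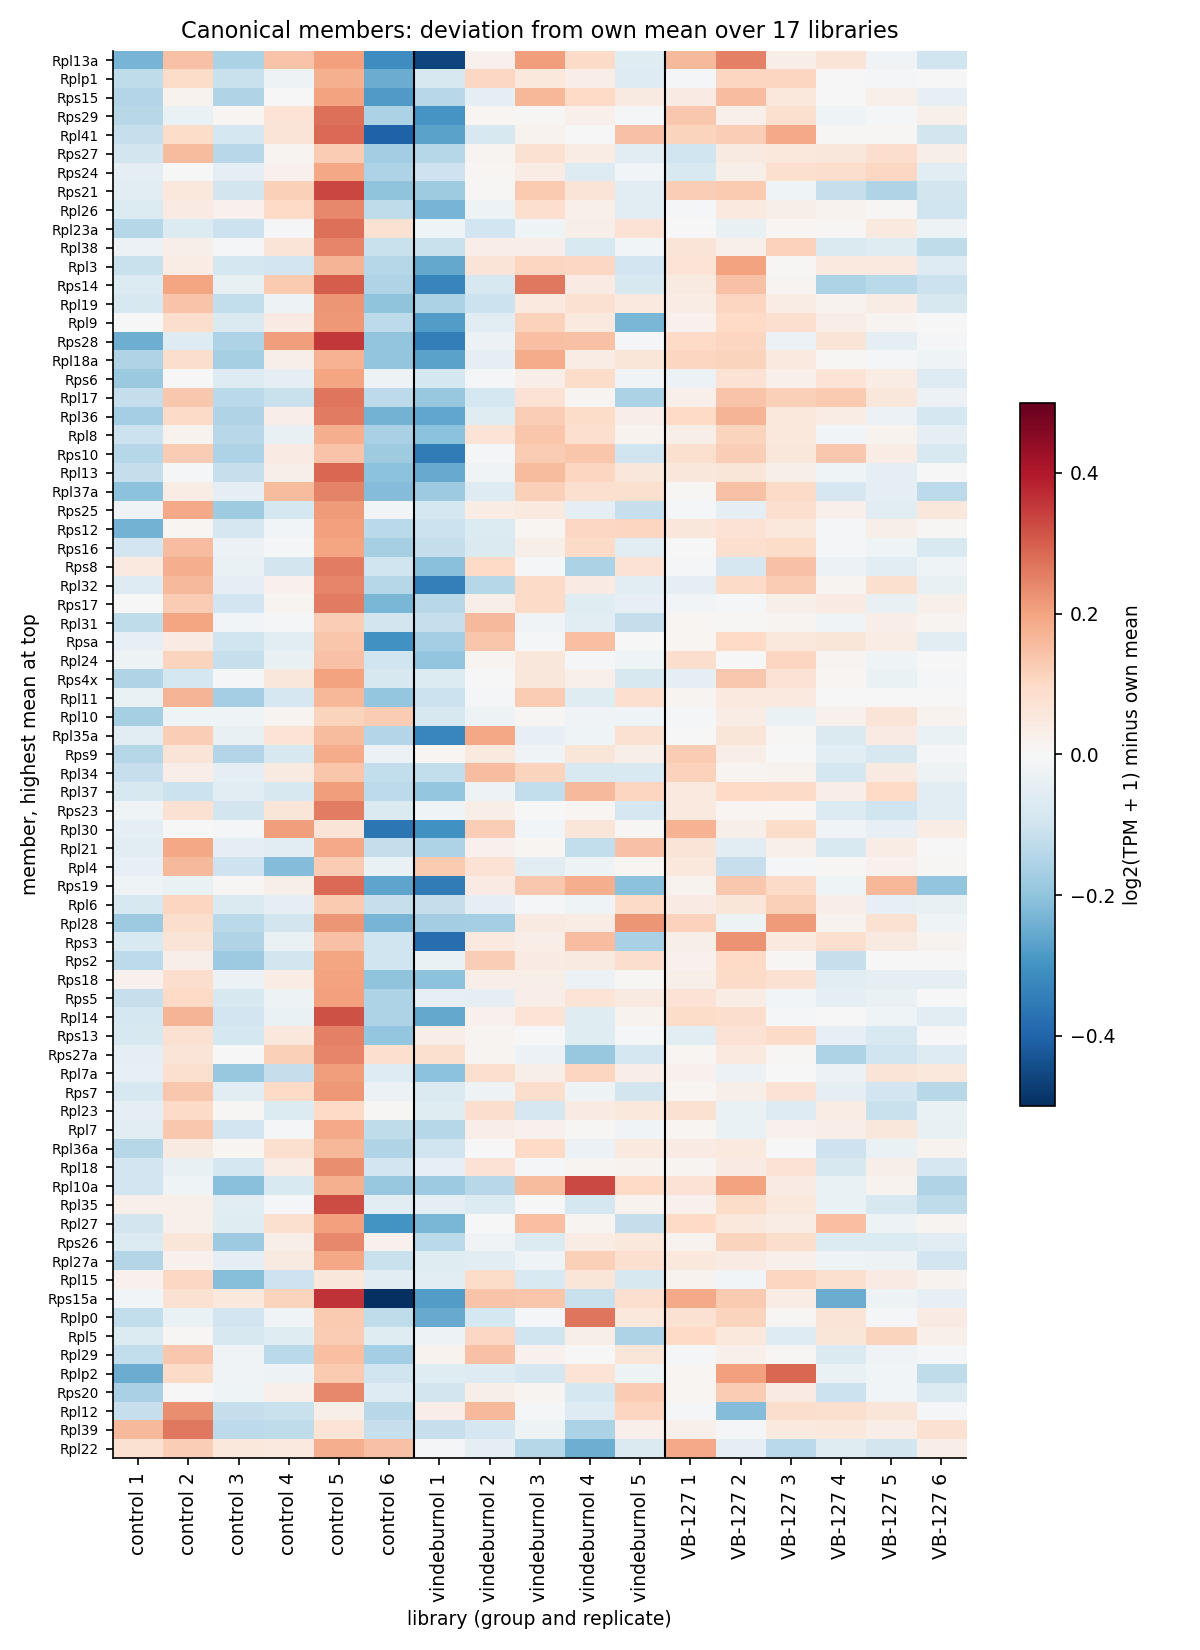
Each of 75 canonical genes (rows, highest mean at the top) in each of the 17 libraries (columns), as log2(TPM + 1) minus the gene's own mean; values beyond the colour scale take its end colour. The column of control replicate 5 is red for nearly every gene and that of vindeburnol replicate 1 mostly blue, while Rpl22 in the bottom row is red in all 6 controls and blue or near white in the 5 vindeburnol libraries.

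Summed over all 83 genes, the family took 4.49%, 4.88% and 5.77% of all TPM in the lowest, median and highest control. After vindeburnol it took 4.43%, 5.01%, 5.22%, 5.12% and 4.96%, and after VB-127 4.86%, 5.07% and 5.27% in the lowest, median and highest library. Every treated library lay below the highest control, replicate 5, and all but vindeburnol replicate 1 lay above the lowest, replicate 6. The group means were 4.99% ± 0.473 in the untreated libraries (SD, n = 6), 4.95% ± 0.306 in the vindeburnol libraries (n = 5) and 5.08% ± 0.150 in the VB-127 libraries (n = 6), so they differed by less than the spread of the controls.

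Because Bc1 takes a large and uneven part of the total, the share was also taken of the TPM that remains without it. It was then 6.65% ± 0.890 in the untreated libraries (SD, n = 6), 6.34% ± 0.739 in the vindeburnol libraries (n = 5) and 6.45% ± 0.557 in the VB-127 libraries (n = 6). The highest library changed from control replicate 5 to control replicate 4, at 7.80%, where Bc1 took 35.3% of all TPM. The order of libraries within a group thus moved with the part taken by Bc1, as the paired plots of the share show.

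**Figure D3:**
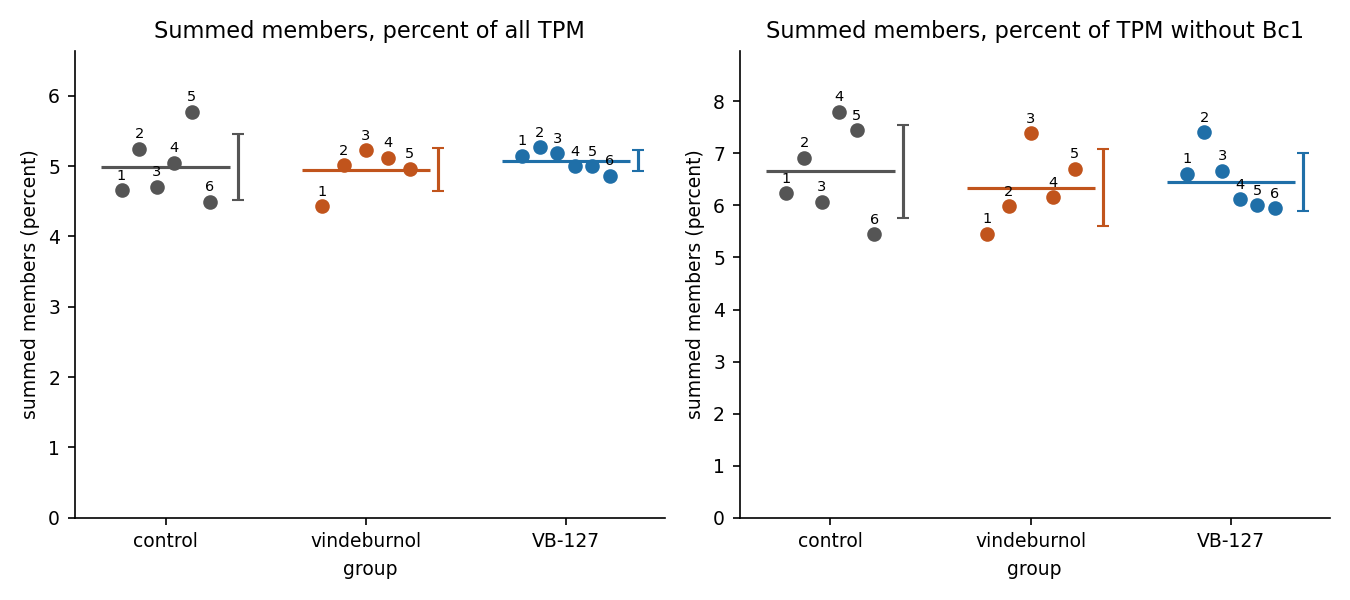
Summed TPM of the 83 genes as a percent of all TPM (left) and of TPM without Bc1 (right); points are libraries with their replicate number, horizontal lines are group means and bars at the side are ± 1 SD. The 3 groups overlap in both panels, and the highest control is replicate 5 on the left (5.77%) and replicate 4 on the right (7.80%).

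The balance between the subunits was narrow. The ratio of the summed 60S genes to the summed 40S genes lay between 1.35 and 1.40 in all 17 libraries, with means of 1.37 ± 0.015 in the untreated libraries (SD, n = 6), 1.37 ± 0.019 in the vindeburnol libraries (n = 5) and 1.38 ± 0.011 in the VB-127 libraries (n = 6). The ranges of the 3 groups overlapped.

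Each gene was then compared between groups with limma, a linear model moderated across genes, on log2(TPM + 1) over all 16153 tested genes, two-sided and with Benjamini-Hochberg adjustment. No ribosomal protein gene differed between vindeburnol and controls at an adjusted p under 0.05: limma called 0 of the 79 tested members, where it called 0 of all genes (0% higher and 0% lower). The members' differences had a median of -0.01, with 31 higher and 48 lower, while the median over all tested genes was 0.08 and 69.7% of them were higher. Without control replicate 5 the members' median was 0.03, with 56 of 79 higher, against a median of 0.09 over all genes in that fit. Without control replicate 2, control replicate 4 or vindeburnol replicate 1 the members higher numbered 42, 40 and 51. The medians over all genes in those fits were 0.08, 0.03 and 0.06. The direction of the members' median thus turned on single libraries. With all libraries the differences ran from -0.25 for Rps27l to 0.12 for Rpl10a, with a median SE of 0.07. For the canonical genes the 95% intervals lay between -0.34 and 0.31 for the 60S subunit and between -0.30 and 0.26 for the 40S subunit.

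At an unadjusted p under 0.05, 0 members were higher and 1 was lower (1.27%), beside 6.95% of all tested genes higher and 1.22% lower, so the share on the lower side was near that of all genes. The member was Rpl22, a 60S protein that binds RNA and has the paralog Rpl22l1. It measured 204, 211 and 223 TPM as the lowest, median and highest control, and 196, 191, 178, 166 and 187 TPM in the 5 vindeburnol libraries. All 5 vindeburnol values lay below the lowest control, which held for no other member. Of all tested genes, 0.0619% were separated in this way on the lower side and 0.458% on the higher side.

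Group means of Rpl22 were 212 ± 7.97 TPM in controls (SD, n = 6) and 184 ± 11.9 TPM after vindeburnol (SD, n = 5). The log2 difference was -0.21 (SE 0.07, 95% interval -0.34 to -0.07), and its adjusted p from limma was 0.488, which misses the threshold. Over 31 alternative settings its adjusted p ranged from 0.294 to 0.938 and its difference kept its sign.

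Rps27a, which encodes a 40S protein made as a fusion with ubiquitin, had the next smallest p. It measured 453, 492 and 554 TPM as the lowest, median and highest control and 495, 473, 458, 409.6 and 440.1 TPM after vindeburnol. The groups overlapped, although none of the 5 treated libraries exceeded the control mean of 495 TPM. The log2 difference was -0.12 (SE 0.06, limma adjusted p 0.618).

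Rps27l measured 33.8, 43.7 and 53.1 TPM as the lowest, median and highest control and 34.0, 39.1, 28.5, 35.8 and 48.7 TPM after vindeburnol. The groups overlapped, with vindeburnol replicate 3 below every control, and the log2 difference of -0.25 had an interval of -0.53 to 0.03 (limma adjusted p 0.626). Rpl9 and Rpl32, both 60S proteins, stood at -0.10 and -0.11 on the log2 scale (limma adjusted p 0.705 and 0.722).

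On the higher side the 5 members with the smallest p were Rps2, near the entry of the messenger channel, Rpl10a, of the mobile L1 stalk, Rpl29, Rps15 and Rpl12. Rps2 measured 435, 462 and 565 TPM as the lowest, median and highest control and 482, 537, 507, 508 and 524 TPM after vindeburnol. All 5 treated libraries were above the control mean of 479 TPM but below the highest control, replicate 5. The log2 difference was 0.10 (SE 0.06, limma adjusted p 0.693).

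Rpl10a had the largest difference of the 5, 0.12, with 332, 343, 421, 474 and 404 TPM after vindeburnol against 326, 355 and 426 TPM as the lowest, median and highest control. Only 3 of its 5 treated libraries exceeded the control mean. Rpl29, Rps15 and Rpl12 each had a log2 difference of 0.08, and these 3 turned below 0 under median-ratio scaling, with values between -0.01 and 0.00.

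No member passed for VB-127 against controls either: limma called 0 of the 79 members, where it called 0.00619% of all genes higher (the single gene Gm28119, which is no member and was named after its value was seen) and 0% lower. The median difference of the members was 0.03, with 56 higher and 23 lower, while the median over all genes was 0.11 and 79.4% of them were higher. The lowest difference was -0.12, for Rpl22. The 95% intervals of the canonical genes lay between -0.25 and 0.32 for the 60S subunit and between -0.28 and 0.28 for the 40S subunit.

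At an unadjusted p under 0.05, 0 members were higher and 0 lower, beside 9.67% and 0.532% of all tested genes. No member had groups that did not overlap, which 0.656% of all genes had on the higher side and 0.0124% on the lower side. Leaving out control replicate 5, the library in which the whole family was high, gave 7 members at that p, all higher, among them Rpl17, Rpl28, Rpl37 and Rplp1. These were 8.86% of the members, below the 11.4% of all genes that were higher at that p in the same fit. The members' median difference in that fit was 0.07, against 0.12 for all genes, and still no member passed after adjustment.

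Rpl22 had the lowest difference from controls. In the VB-127 group it measured 179.5, 189.9 and 225 TPM as the lowest, median and highest library. VB-127 replicate 1, at 225 TPM, was above every control, and the other 5 libraries, from 179.5 to 201 TPM, were below every control. The log2 difference was -0.12 (SE 0.06, 95% interval -0.25 to 0.01, limma adjusted p 0.507).

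Rps27a measured 420.3, 459 and 483 TPM as the lowest, median and highest VB-127 library. All 6 were below the control mean of 495 TPM, while 2 of the 6 controls lay within their range. Its log2 difference was -0.12 (SE 0.06, limma adjusted p 0.500). The other genes with the smallest p on the lower side were the 40S genes Rps7, Rps14 and Rps23, at -0.08, -0.10 and -0.06 on the log2 scale (limma adjusted p 0.635 to 0.696).

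On the higher side Rpl28, a 60S protein, measured 419, 455 and 574 TPM as the lowest, median and highest control and 484, 509 and 571 TPM as the lowest, median and highest VB-127 library. All 6 VB-127 libraries were above the control mean of 477 TPM and below control replicate 5. The log2 difference was 0.12 (SE 0.08, 95% interval -0.05 to 0.29, limma adjusted p 0.589).

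Rps15, Rpl37 and Rplp0 stood at 0.10, 0.09 and 0.09 on the log2 scale. For Rplp0 the 6 VB-127 libraries, from 319 to 346 TPM, all exceeded the control mean of 311 TPM and were below control replicate 5 at 351 TPM. Under median-ratio scaling Rps15, Rpl37 and Rplp0 each stood at -0.02. That scaling lowered the median of all genes in this comparison from 0.11 to 0.01, and the members' median then was -0.09.

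**Figure D4:**
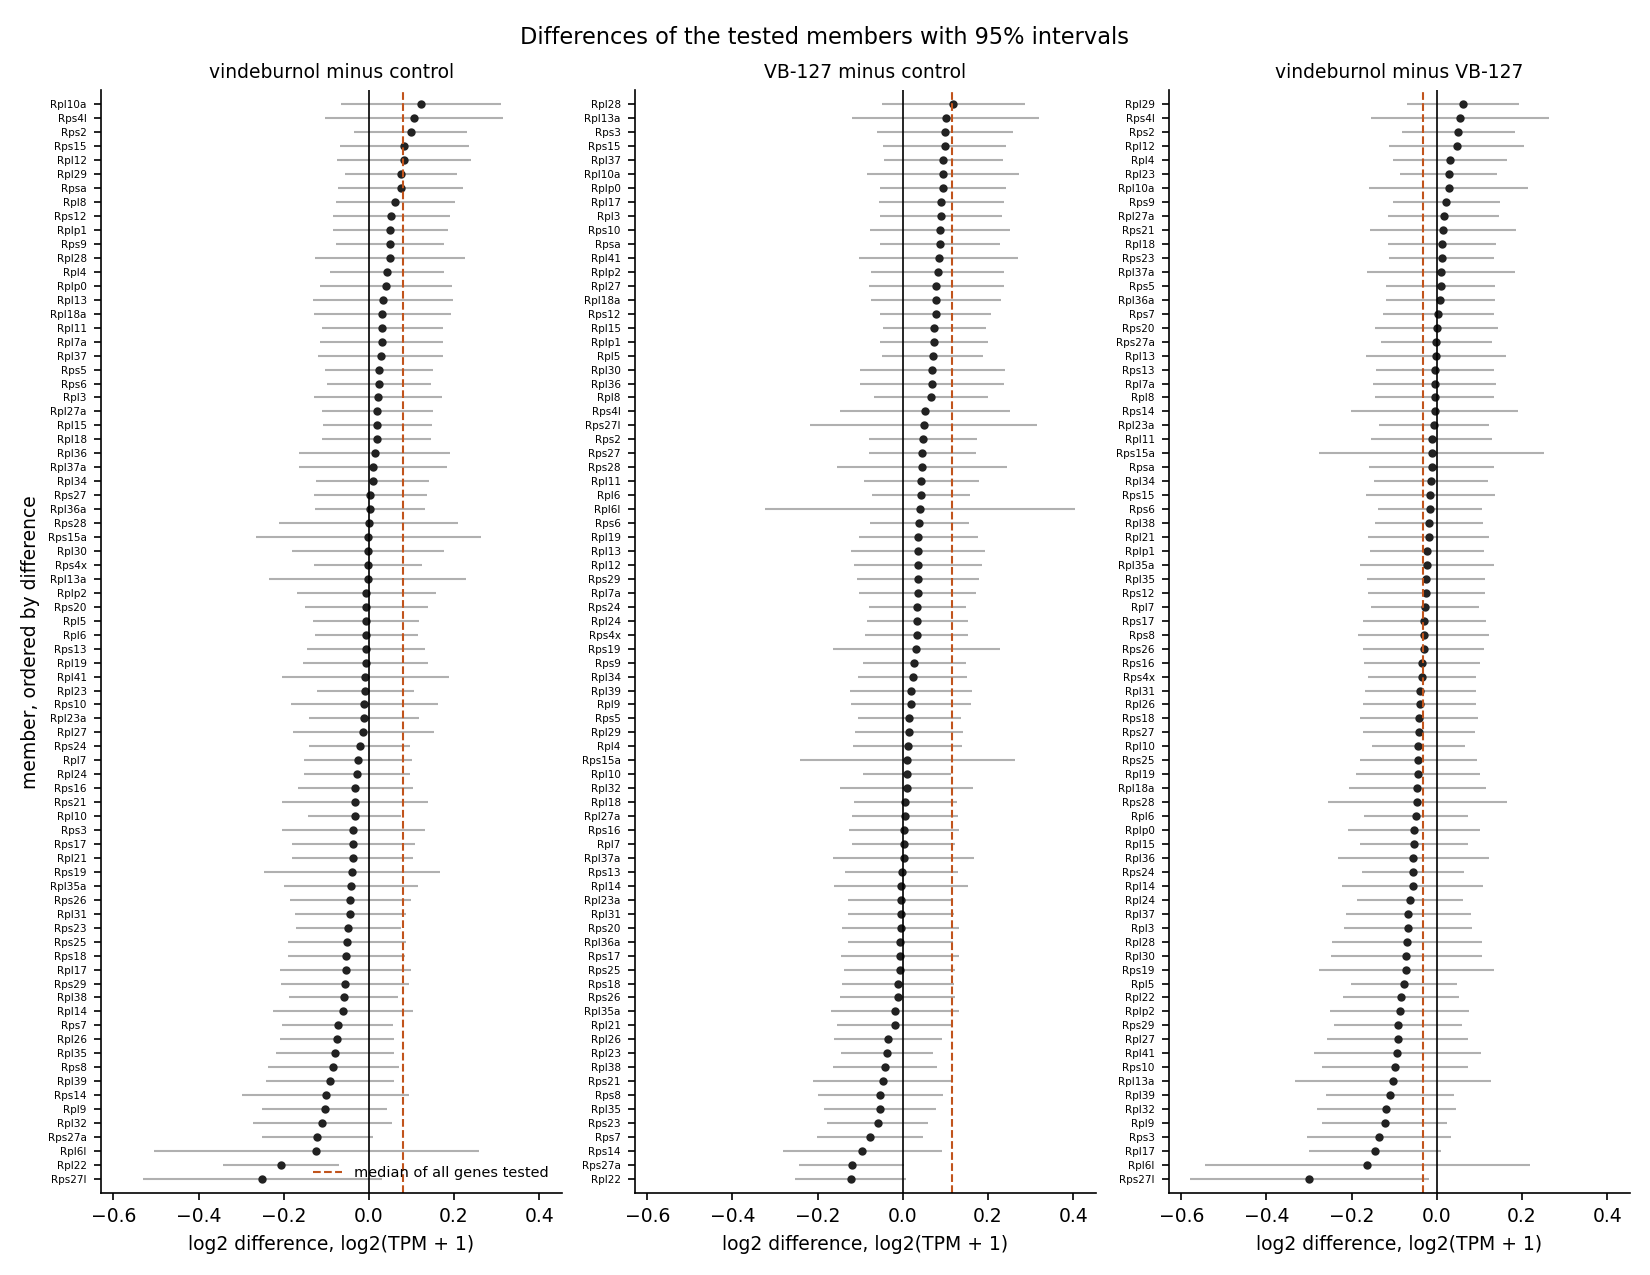
Log2 difference of 78 of the 79 tested genes with its 95% interval from limma, for vindeburnol minus control, VB-127 minus control and vindeburnol minus VB-127; the solid line is 0 and the dashed line the median of all tested genes. Every interval crosses 0 except those of Rpl22 on the left and Rps27l on the right.

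The compounds were given at the same dose and time and were compared directly as well. The comparison shares no control library, and limma called 0 of the 79 members, as it called 0% of all genes higher and 0% lower. The members had a median difference of -0.03 for vindeburnol minus VB-127, with 16 higher and 63 lower, against a median of -0.03 over all genes, 38.9% of which were higher. The outermost ends of the canonical genes' 95% intervals were -0.33 and 0.21 for the 60S and -0.30 and 0.25 for the 40S subunit. The median SE over the members was 0.07. The size of difference between the compounds that cannot be told from 0 here depended on the gene.

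At an unadjusted p under 0.05, 0 members were higher and 1 was lower (1.27%), beside 0.891% and 2.49% of all genes. No member had groups apart, against 0.105% of all genes on the higher side and 0.285% on the lower side. This was Rps27l, which p53 is known to induce, at 38.0, 45.2 and 55.7 TPM as the lowest, median and highest VB-127 library against the vindeburnol values given above. The groups overlapped, with vindeburnol replicate 5 at 48.7 TPM above the VB-127 median. The log2 difference was -0.30 (SE 0.13, 95% interval -0.58 to -0.02, limma adjusted p 1.00), and leaving out a single library moved it between -0.40 and -0.21.

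Its partner Rps27 had group means of 1270.0 ± 124 TPM in the untreated libraries (SD, n = 6), 1270.1 ± 75.3 in the vindeburnol libraries (n = 5) and 1307 ± 58.6 in the VB-127 libraries (n = 6). Rps27l as a percent of Rps27 was 3.50% ± 0.557 in the untreated libraries (SD, n = 6), 2.95% ± 0.665 in the vindeburnol libraries (n = 5) and 3.52% ± 0.695 in the VB-127 libraries (n = 6). The vindeburnol mean lay within 1 SD of each of the other means.

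Rpl17, which sits at the mouth of the exit tunnel, had a log2 difference of -0.15 between the compounds, with 684, 735, 821, 788 and 699 TPM after vindeburnol. The lowest, median and highest VB-127 libraries were 766, 829.9 and 863 TPM, so 3 of the 5 vindeburnol libraries lay below that range. Rpl9, Rps3 and Rpl39 stood at -0.12, -0.14 and -0.11, and Rpl29, Rps2, Rpl12, Rps4l and Rpl23 had the smallest p on the higher side with 0.03 to 0.06. Vindeburnol replicate 1, the library in which the family was lowest, contributed the lowest value of Rps3 and Rpl17. Without it the members' median was 0.00 in place of -0.03 and no member was at an unadjusted p under 0.05.

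**Figure D5:**
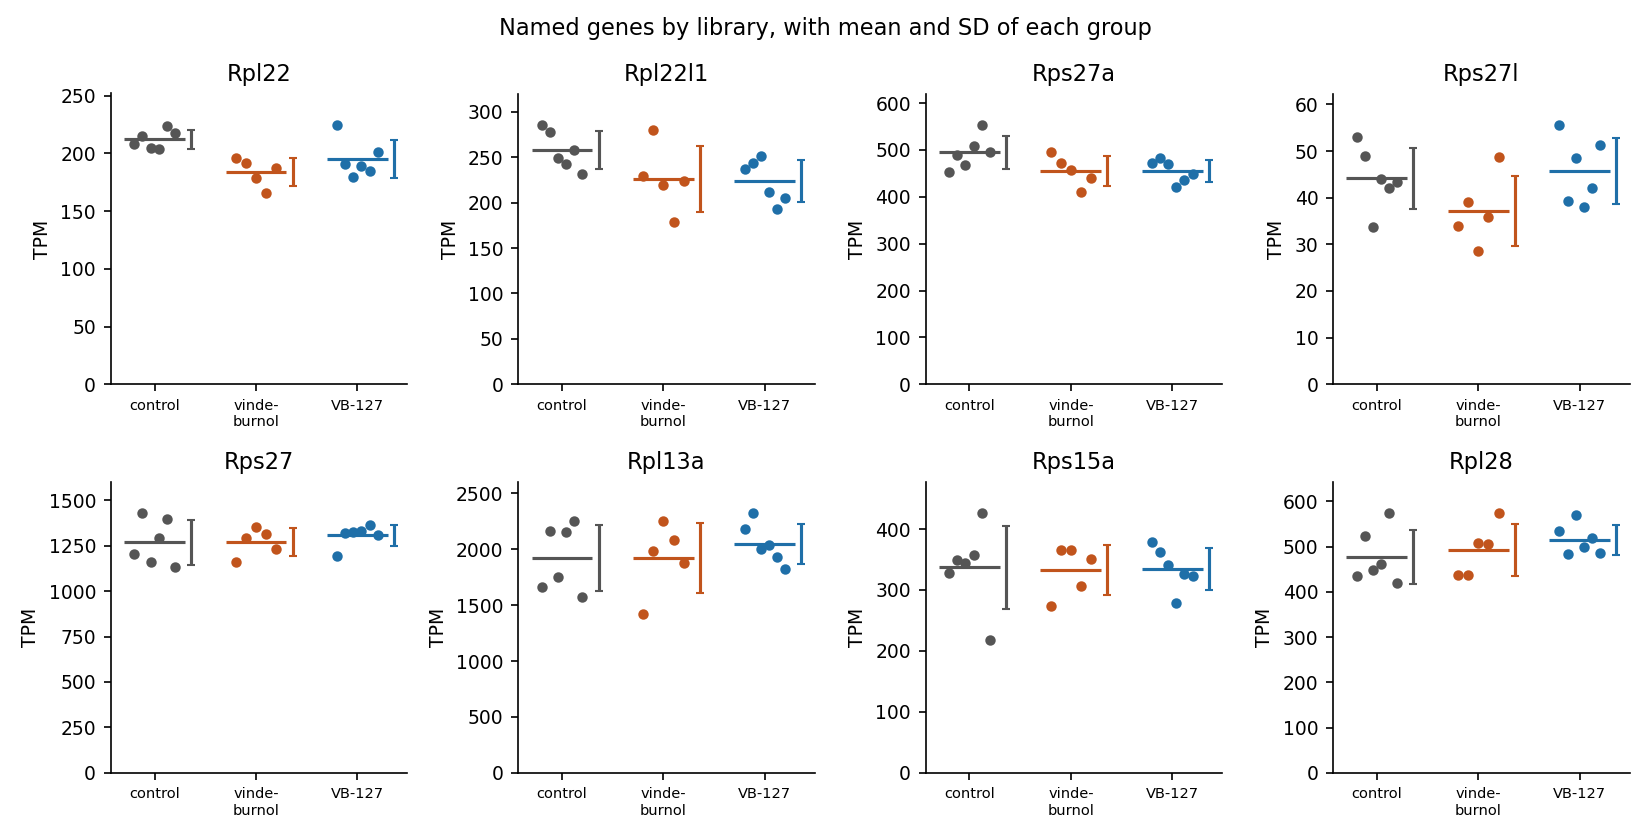
TPM of 8 genes in every library, with group means as horizontal lines and ± 1 SD as bars at the side; all axes start at 0. Rpl22 shows the 5 vindeburnol points below the 6 control points, and the other 7 genes overlap between all groups.

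Rpl22 has a counterpart outside the naming pattern, drawn beside it in the plots by library. Rpl22l1, the paralog that can take the place of Rpl22 in the ribosome, had a mean of 236 TPM, above the 198 TPM of Rpl22, and measured 258 ± 20.9 TPM in controls (SD, n = 6). It was at 229, 279.8, 219.8, 178 and 224 TPM after vindeburnol and at 224 ± 23.4 TPM after VB-127 (SD, n = 6). The log2 differences from controls were -0.20 (95% interval -0.40 to 0.00, limma adjusted p 0.609) and -0.21 (95% interval -0.40 to -0.01, limma adjusted p 0.479), with overlapping groups in both. These comparisons share the control libraries. Of the 8 ribosomal protein genes outside the pattern that were tested, limma called 0 in each comparison.

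Several members have known roles beyond their place in the subunit. Rps6, the target of the S6 kinases below mTOR, measured 816 ± 72.9 TPM in the untreated libraries (SD, n = 6), 827 ± 37.8 in the vindeburnol libraries (n = 5) and 836 ± 31.7 in the VB-127 libraries (n = 6). Rpl5 and Rpl11, which with the 5S rRNA bind Mdm2 when ribosome assembly fails, had log2 differences of -0.01 and 0.03 for vindeburnol minus control. For VB-127 minus control the same genes stood at 0.07 and 0.04.

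Rps19, a 40S protein mutated in Diamond-Blackfan anaemia, stood at -0.04 and 0.03, with intervals of -0.25 to 0.17 and -0.16 to 0.23. Rpsa, also known as a laminin receptor, measured 589.6 ± 59.3 TPM in the untreated libraries (SD, n = 6), 620.3 ± 54.8 in the vindeburnol libraries (n = 5) and 624 ± 22.4 in the VB-127 libraries (n = 6). Each of these differences was smaller than the SD among the controls.

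Genes that make, use or regulate ribosomes were examined from lists chosen by function, and limma called 0 members of each list in each comparison after adjustment. At an unadjusted p under 0.05, the 44 genes of ribosome biogenesis and RNA polymerase I had 2 higher and 0 lower after vindeburnol. After VB-127 they had 8 higher and 0 lower. Of all genes, 6.95% were higher and 1.22% lower after vindeburnol, and 9.67% and 0.532% after VB-127. Nob1, a nuclease that finishes the 18S rRNA, had a log2 difference of 0.34 and Bop1, a 60S assembly factor, 0.24 after VB-127 (limma adjusted p 0.461 for both). The list medians were 0.05 and 0.07, below the 0.08 and 0.11 of all genes.

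Of 31 genes of mTOR and of the control of pyrimidine-led messengers, 6 were higher and 0 lower after vindeburnol and 7 higher and 0 lower after VB-127 at the same unadjusted p, beside 6.95% and 9.67% of all genes higher. The list medians were 0.09 and 0.12, against 0.08 and 0.11 for all genes. Ddit4, an inhibitor of mTOR induced by stress hormones, had a log2 difference of 0.43 for vindeburnol minus control and 0.43 for vindeburnol minus VB-127 (limma adjusted p 0.516 and 1.00). Sesn2, another inhibitor of mTOR, stood at 0.36 for vindeburnol minus control (limma adjusted p 0.516). Rps6kb2, an S6 kinase gene, stood at 0.82 for VB-127 minus control (95% interval 0.28 to 1.36, limma adjusted p 0.461). Sesn2 and Rps6kb2 were each among the genes counted as higher after both compounds, and those comparisons share the control libraries.

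Among 39 initiation factor genes 2 were higher and 0 lower after vindeburnol and 2 higher and 1 lower after VB-127. The counts in this paragraph are at an unadjusted p under 0.05 from limma. Of all genes, 6.95% were higher and 1.22% lower after vindeburnol, and 9.67% and 0.532% after VB-127. Eif2b2, a subunit of the exchange factor for eIF2, had a log2 difference of 0.40 after vindeburnol, and Eif4e, the cap-binding protein, 0.26 after VB-127 (limma adjusted p 0.507 and 0.467). Of 10 elongation factor genes 1 was higher after VB-127, Eef1a2, at 0.13 (limma adjusted p 0.470), and none after vindeburnol. Of 14 tested genes of the integrated stress response 2 were higher after vindeburnol and 3 after VB-127, among them the asparagine synthetase gene Asns at 0.18 and 0.23 (limma adjusted p 0.607 and 0.468).

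The 78 genes of mitochondrial ribosomal proteins, which belong to a separate ribosome, had 8 higher and 1 lower after vindeburnol and 13 higher and 0 lower after VB-127 at the unadjusted p, beside 6.95% and 9.67% of all genes higher. Their medians of 0.04 and 0.09 were below the 0.08 and 0.11 of all genes. Mrpl58, a mitochondrial release factor, stood at 0.36 after vindeburnol and Mrpl38 at 0.34 after VB-127 (limma adjusted p 0.425 and 0.461). Other lists had 1 higher and 3 lower of 84 respiratory chain genes and 1 higher and 0 lower of 37 proteasome genes after vindeburnol. After VB-127 they had 6 higher and 3 lower, and 4 higher and 0 lower. Of all genes, 1.22% were lower after vindeburnol and 0.532% after VB-127. Of 17 rows tested for 16 symbols of a list of small nucleolar RNA host genes, in which Snhg4 names 2 rows and the pseudogene Rps19-ps3 is included, 1 was higher and 1 lower after vindeburnol and 2 were higher after VB-127, with Snhg9 at 0.67 and 0.77 (limma adjusted p 0.589 and 0.470).

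In total, limma called 0 of the 79 tested members in each of the 3 comparisons under the fit described and under 31 alternatives per comparison. The smallest adjusted p of any member was 0.294, for vindeburnol against controls with quantile normalization. Marker lists of neurons, glia, vessels and blood also held no gene past the adjusted threshold, which nearly no gene passed in any comparison. At an unadjusted limma p under 0.05, noradrenergic markers had 1 higher and 3 lower of 8 after vindeburnol. Erythrocyte markers there had 3 higher and 0 lower of 5, beside 6.95% and 1.22% of all genes. Oligodendrocyte markers had 4 higher and 0 lower of 10 after VB-127, beside 9.67% and 0.532%. Endothelial markers had 0 higher and 4 lower of 10 for vindeburnol minus VB-127, beside 0.891% and 2.49%. How this bears on the members was not tested.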

How the data were processed

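The authors' deposited values are TPM per gene and library; reads were aligned with STAR and quantified with Salmon on GRCm39 (mm39), per the submitters' processing notes. The libraries kept strand, per the labels' protocols, while no source used here gives the strand setting of the quantification. A joint table of all libraries was not used. TPM keeps no read depth, so no interval that needs depth is given and precision rests on the number of libraries.

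Genes reaching 1 TPM in at least 5 libraries were tested as log2(TPM + 1), a pseudocount of 1, with limma 3.58.1 under R 4.3.3, fitting the 3 groups and no covariate to the 17 libraries together and moderating variances with the trend and robust options. Fold changes are on that scale, which understates those of low genes. Adjustment was by Benjamini-Hochberg over all tested genes. The fit was tested on simulated data. Summaries and figures used Python 3.11.15, pandas 2.3.3, numpy 2.4.6 and matplotlib 3.10.9.

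The members, lists, tests and naming rule were chosen with earlier results of these data known. Named were the 10 highest and 6 lowest members, every paralog with its partner, per comparison up to 5 members with the smallest p in each direction, the 5 with the largest and the 5 with the smallest SD, fixed reference members, up to 2 genes per list and comparison, and genes of the tissue check. Pseudogene rows were named after their values were seen.

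Start-site sequences are from RefSeq on GRCm38.p6 and lengths from GENCODE M21, matched by symbol or identifier; no coordinate was carried between builds. Replicate numbers are shared by the groups, and correlations of same-numbered libraries' deviations ran from -0.195 to 0.111, so the numbers were not treated as pairs. Alternatives changed the pseudocount, filter, scaling, pseudogene rows, library weights, moderation, groups in the fit, replicate block and each library in turn. Some items the rule selects are not reported here and are left out of the figures.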

Additional observations from a re-analysis of the deposited data

Results flagged for a closer look

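Within a group, 11 values stood apart from the other libraries of their group by Dixon's test at the 95% level, out of 171 groups examined. Chance gives about 1 in 20, or 8.55, where values are normally distributed. Members moved together by library and some paralogs were at or near 0, so 8.55 is only a rough guide here. In vindeburnol replicate 5 the ratio of summed 60S to summed 40S genes was 1.40, against 1.36 to 1.37 in the other 4 vindeburnol libraries. In vindeburnol replicate 1 the 40S gene Rps29 was at 1116 TPM against 1363 to 1395 TPM. Rps27 was at 1193 TPM in VB-127 replicate 1 against 1308 to 1362 TPM, and the 60S gene Rpl26 was at 1066 TPM in VB-127 replicate 6 against 1137 to 1179 TPM. VB-127 replicate 2 stood apart for 2 genes, with Rpl12 at 196 TPM against 226 to 242 TPM and Rps3 at 575 TPM against 498 to 522 TPM. Control replicate 5, in which the whole family was high, stood apart for Rpl37 at 618 TPM against 488 to 514 TPM. The remaining values belong to paralogs near 0. Rpl3l was at 1.04 TPM in VB-127 replicate 4 against 0.148 to 0.409 TPM. Rpl39l was at 1.21 TPM in control replicate 4 against 0 to 0.281 TPM. Rpl32l was at 0.702 TPM in vindeburnol replicate 2 and 1.38 TPM in VB-127 replicate 3. For Rpl32l the other libraries of those groups were listed at 0.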

How the results depend on the processing

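No member passed an adjusted p under 0.05 in any of the 31 alternatives per comparison, with an adjusted p of at least 0.294. Over all genes, limma called 1 for vindeburnol minus control, in place of 0, with log2(TPM + 5), with 1 TPM required in all 17 libraries, with Bc1 removed, with Bc1 and mitochondrial genes removed, with library weights, and without trend and robust moderation. For VB-127 minus control it called 0, in place of 1, with log2(TPM + 0.1), with no filter and with 1 TPM required in all 17 libraries, 3 with library weights and 2 with only the 2 groups in the fit.

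Members at an unadjusted p under 0.05 for vindeburnol minus control, 1 with the settings of the report, numbered 2 under median-ratio scaling, 8 under quantile normalization (all lower), 2 with Bc1 removed, 3 with Bc1 and mitochondrial genes removed and 2 with library weights. For VB-127 minus control, 0 in the report, they numbered 2 under median-ratio scaling, 6 under quantile normalization, 2 with Bc1 removed, 3 with Bc1 and mitochondrial genes removed, 1 with pseudogene rows added to their members, 1 with library weights and 1 with only the 2 groups in the fit. For vindeburnol minus VB-127, 1 in the report, they numbered 0 under median-ratio scaling, with Bc1 removed and without trend and robust moderation, and 2 with only the 2 groups in the fit. Scaling every library to its summed members, chosen after seeing the data, gave 2, 3 and 1 for the 3 comparisons. The cause of these changes was not tested. The share of all genes at that p in the same fits is not given here, so these counts are no result about the members.

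Under median-ratio scaling the members' median for VB-127 minus control was -0.0854 in place of 0.03, and for vindeburnol minus control -0.09 in place of -0.01. That scaling turned Rpl29 (-0.0101), Rps15 (-0.00226) and Rpl12 (-0.00338) below 0 for vindeburnol minus control, and Rps15 (-0.0198), Rpl37 (-0.0233) and Rplp0 (-0.0246) for VB-127 minus control. Rpl29 also turned with Bc1 and mitochondrial genes removed (-0.00472). Adding ribosomal protein genes with irregular names raised the mean share in every group, to 5.25% of all TPM in controls, 5.21% after vindeburnol and 5.35% after VB-127.

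Leaving out each library in turn gave 0 to 0, 0 to 1 and 0 to 0 called genes. These ranges are for vindeburnol minus control, VB-127 minus control and vindeburnol minus VB-127. Members at an unadjusted p under 0.05 numbered 1 to 3, 0 to 7 and 0 to 2. Of all genes in those fits, 4.01% to 10.6% were higher and 0.991% to 2.12% lower for vindeburnol minus control. The shares were 6.04% to 13.5% and 0.362% to 0.758% for VB-127 minus control. For vindeburnol minus VB-127 they were 0.499% to 1.42% and 1.64% to 4.35%. In the fit with 7, without control replicate 5, 11.4% of all genes were higher at that p. The members' medians ranged from -0.04 to 0.03, from 0.00 to 0.07 and from -0.05 to 0.00. Without control replicate 5 the first of these was 0.03 with 56 of 79 members higher, against a median of 0.09 over all genes. With the replicate block the medians were -0.03, 0.03 and -0.05, limma called 0 genes for VB-127 minus control, and 1, 0 and 1 members had an unadjusted p under 0.05, the last being Rpl17 in place of Rps27l. The replicate block changed no call of a member. TPM keeps no depth, so what depth limits is unknown.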
